A study of Anolis sagrei with 10 samples.

Results

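The SALL genes are a small family of transcription factors, and all 4 vertebrate members, SALL1, SALL2, SALL3 and SALL4, were found by symbol among the 25920 gene identifiers measured here. Transcript counts came from RNA sequencing of limb buds of the brown anole (Anolis sagrei, a lizard) at developmental stage 7. The embryos were wild type and untreated as far as the labels say, and the 2 groups differ only in the limb: 5 forelimb libraries and 5 hindlimb libraries, each numbered 1 to 5. Buds were collected as pairs, and the labels do not say whether a library holds the buds of a single embryo or of several. Libraries of the same number deviated together from their limb's mean, so each limb difference is given both without and with the number as a block (a term that compares forelimb with hindlimb within a number). P-values set the limb difference against the spread between these libraries, and with the block against what is left of it after number effects. That spread may in part be technical.

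SALL proteins are relatives of spalt of Drosophila and bind DNA through pairs of zinc fingers spread along the protein. A short motif at the N-terminal end recruits the NuRD complex, a chromatin remodeller and histone deacetylase, so SALL proteins mostly act as repressors. In people, mutation of a SALL1 copy causes Townes-Brocks syndrome, with malformed thumbs, ears and kidneys. Loss of a SALL4 copy causes Duane-radial ray syndrome, with defects of the radial side of the arm. In mice, Sall1 and Sall3 overlap in function in the limb bud, Sall4 acts with Tbx5 in the forelimb and with Gli3 in the early hindlimb, and Sall2 is known mainly from the eye and nervous system.

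All 4 genes were well covered, with 710 to 5903 reads per gene and library from totals of 41808148 to 54998469, so counting error is small beside the spread between libraries. Levels are CPM, read counts scaled to a common library total, after TMM scaling between libraries. Forelimb replicate 4 had the highest total and the other libraries had at most 47180041. The limb labels were checked with 2 T-box genes that mark forelimb (TBX5) and hindlimb (TBX4). TBX5 had a forelimb mean of 479 CPM ± 67.3 (SD, n = 5) and a hindlimb mean of 1.82 CPM ± 0.700. TBX4 had means of 0.267 CPM ± 0.193 in forelimb and 40.9 CPM ± 8.45 in hindlimb. Of 10 markers of limb mesenchyme, 7 had a symbol and were tested, and their summed level was 602 to 688 CPM in forelimb and 508 to 649 CPM in hindlimb. Log2 fold changes of these 7, forelimb over hindlimb, ran from -0.49 to 0.73. The highest was that of TBX18, with means of 223 CPM in forelimb and 134 CPM in hindlimb. The sums therefore do not compare amounts of mesenchyme. PRRX1, a defining marker of that tissue, had no symbol and was not used here.

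SALL1 (ENSACAG00000014399) was the member that differed most between the limbs, at a level 1.79 times higher in forelimb than in hindlimb. In forelimb replicates 1 to 5 it was at 135, 83.4, 125, 100.3 and 82.4 CPM. In hindlimb replicates 1 to 5 it was at 65.6, 57.2, 69.0, 45.3 and 57.5 CPM. Every forelimb library lay above every hindlimb library, and replicates 1 and 3 were the highest in both limbs. Such a separation in either direction was found in 1.19% of all 15595 genes tested.

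The SALL1 mean was 105 CPM ± 24.1 (SD, n = 5) over forelimb libraries and 58.9 CPM ± 9.18 over hindlimb libraries. Its log2 fold change, forelimb over hindlimb, was 0.84 ± 0.16 (SE), with a 95% interval of 0.49 to 1.18 that corresponds to a ratio of 1.41 to 2.27. The adjusted p was 0.0642 in edgeR's quasi-likelihood test (Benjamini-Hochberg over all genes), which does not pass the threshold of 0.05. With the replicate number as a block the log2 fold change was 0.82 ± 0.10, the interval of the ratio 1.53 to 2.04 and the edgeR adjusted p 0.000617, which passes. Within numbers 1 to 5 the forelimb was 2.06, 1.46, 1.81, 2.22 and 1.43 times the hindlimb. Forelimb was thus higher in 5 of 5 pairs, as it was for 7.78% of all genes tested, and the ratio was largest in numbers 4 and 1. Each of these numbers holds a library that stands apart in marker lists, and so does number 3. Hindlimb replicate 4 had a summed level of cartilage markers of 1069 CPM against 1905 to 2567 CPM in the other hindlimb libraries, a neural sum of 9.81 CPM against 33.4 to 43.6 CPM, and the fewest identifiers detected (17132). The ectoderm and apical ridge sum of hindlimb replicate 4 was 647 CPM against 423 to 513 CPM in the other hindlimb libraries. Forelimb replicate 1 had a red blood cell marker sum of 144 CPM against 11.8 to 14.6 CPM in the other forelimb libraries. Forelimb replicate 3 had a cartilage sum of 2376 CPM against 1488 to 1731 CPM in the other forelimb libraries. The part of these features in the SALL1 ratios was not tested. In the block fit the log2 fold change of SALL1 was 0.74 without number 4, 0.77 without number 1 and 0.82 without number 3. The edgeR adjusted p was 0.00949, 0.000999 and 0.00943. The authors' deposited table gives SALL1 a log2 value of 0.62 ± 0.13 (SE) and an adjusted p of 0.000620. DESeq2 without the block gave 0.84 ± 0.17 here. The cause of this gap was not tested, so the deposited value may not be on the same scale.

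**Figure D1:**
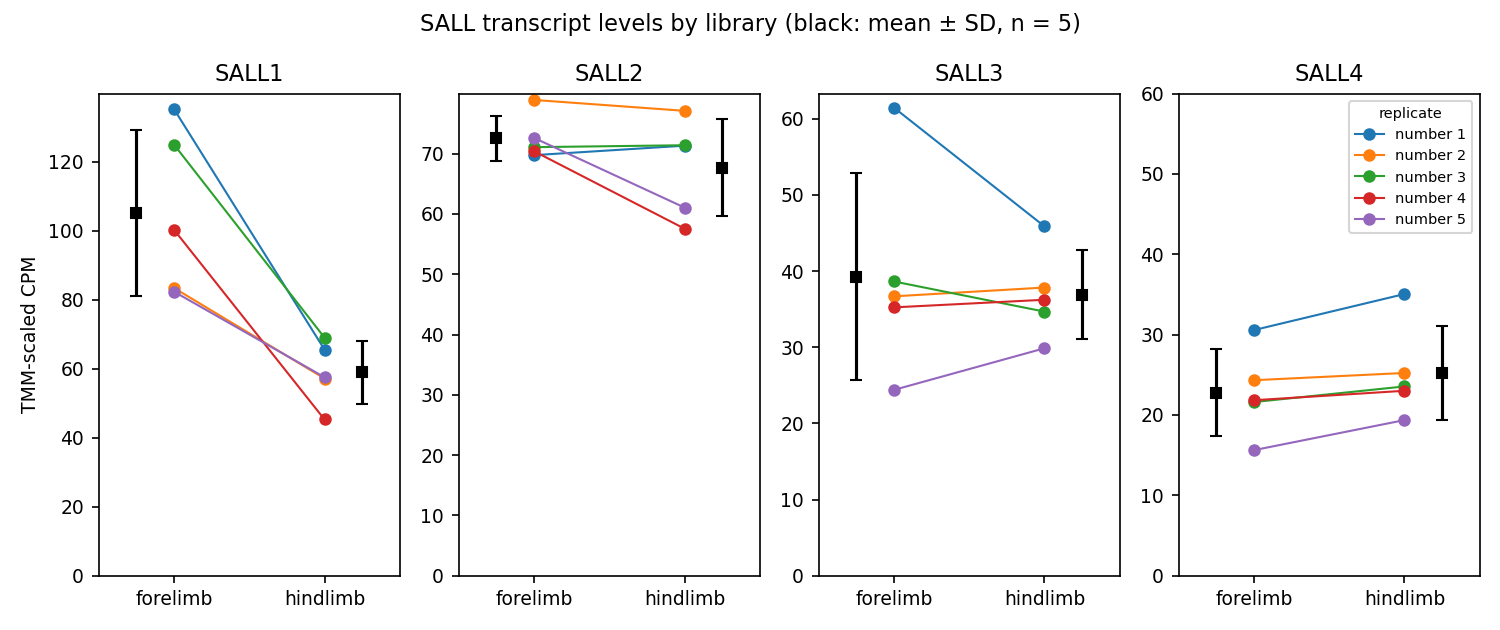
Level of each SALL gene (TMM-scaled CPM, axis from 0, own scale per gene) in the 5 forelimb and 5 hindlimb libraries. Coloured lines join libraries of the same replicate number, and black squares with bars are the mean ± SD of a limb. The SALL1 forelimb libraries (82.4 to 135 CPM) all lie above its hindlimb libraries (45.3 to 69.0 CPM), and the limbs overlap for the other genes.

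SALL1 was the only member whose limb difference passed the threshold in the block fit. The edgeR fit without the block called 0 of 4 members, against 0.199% of all genes tested. At an unadjusted p under 0.05 it held 1 member, SALL1, against 3.95% of all genes (13.8% in the block fit), and DESeq2 without the block also called 1 member, against 0.648% of all genes. The block fit called 1 of 4, against 1.33% of all genes in either direction and 0.705% higher in forelimb, and SALL1 ranked 23rd of 15595 genes by p there and 35th without the block. In the authors' deposited comparison table, 0.414% of 22457 genes have an adjusted p under 0.05, and SALL1 is the 1 member among them.

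SALL2 (ENSACAG00000000030) was nearly level between the limbs and across libraries. In forelimb replicates 1 to 5 it was at 69.8, 78.9, 71.1, 70.4 and 72.6 CPM. In hindlimb replicates 1 to 5 it was at 71.3, 77.1, 71.4, 57.6 and 61.1 CPM. The limbs overlapped, with the lowest values in hindlimb replicates 4 and 5, and forelimb was higher in 3 of 5 pairs. The means were 72.6 CPM ± 3.71 (SD, n = 5) and 67.7 CPM ± 8.10, and the log2 fold change was 0.10 ± 0.10 (SE), for which edgeR gave an adjusted p of 1.0. With the block it was 0.11 ± 0.07 at an edgeR adjusted p of 0.568, and the 95% interval of the ratio was 0.963 to 1.20.

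SALL3 (ENSACAG00000000478), the partner of Sall1 in the mouse limb, varied more between replicate numbers than between limbs. In forelimb replicates 1 to 5 it was at 61.5, 36.7, 38.6, 35.2 and 24.4 CPM. In hindlimb replicates 1 to 5 it was at 45.9, 37.8, 34.7, 36.2 and 29.9 CPM. Replicate 1 was the highest and replicate 5 the lowest in both limbs, the limbs overlapped, and forelimb was higher in 2 of 5 pairs. The means were 39.3 CPM ± 13.6 (SD, n = 5) and 36.9 CPM ± 5.84. The log2 fold change was 0.09 ± 0.20 (SE), for which edgeR gave an adjusted p of 1.0, and with the block it was 0.04 ± 0.10, at an edgeR adjusted p of 0.901 and a 95% interval of the ratio of 0.884 to 1.20. The sign rested on replicate 1: without both libraries of that number the block fit gave -0.047, and without forelimb replicate 1 alone the other fit gave -0.13. Forelimb replicate 1 was also the library with the high red blood cell markers, and the part of those cells in the SALL3 level was not tested.

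SALL4 (ENSACAG00000012748), the member tied to Tbx5 in the mouse forelimb, was slightly lower in forelimb in every pair, and this did not pass the test. In forelimb replicates 1 to 5 it was at 30.6, 24.3, 21.6, 21.8 and 15.6 CPM. In hindlimb replicates 1 to 5 it was at 35.0, 25.2, 23.5, 23.0 and 19.4 CPM. As for SALL3, replicate 1 was the highest and replicate 5 the lowest in both limbs, and the limbs overlapped widely. The forelimb level was 0.872, 0.964, 0.917, 0.949 and 0.807 times the hindlimb level in numbers 1 to 5. All 5 pairs going the same way was found in 14.8% of all genes tested. The means were 22.8 CPM ± 5.40 (SD, n = 5) and 25.2 CPM ± 5.89. The log2 fold change was -0.15 ± 0.19 (SE), for which edgeR gave an adjusted p of 1.0, and with the block it was -0.15 ± 0.09 at an edgeR adjusted p of 0.508. The 95% interval of the ratio with the block was 0.782 to 1.04. Without the block and hindlimb replicate 1 the log2 fold change was 0.0048.

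For SALL2, SALL3 and SALL4 the authors' deposited table gives log2 fold changes of 0.09 ± 0.10, 0.06 ± 0.14 and -0.10 ± 0.14 (SE), each with an adjusted p of 1.0. DESeq2 without the block gave 0.10 ± 0.11, 0.09 ± 0.21 and -0.15 ± 0.20 here. As for SALL1, the deposited values and their SEs were smaller in size. The cause was not tested, so these values too may not be on the same scale.

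**Figure D2:**
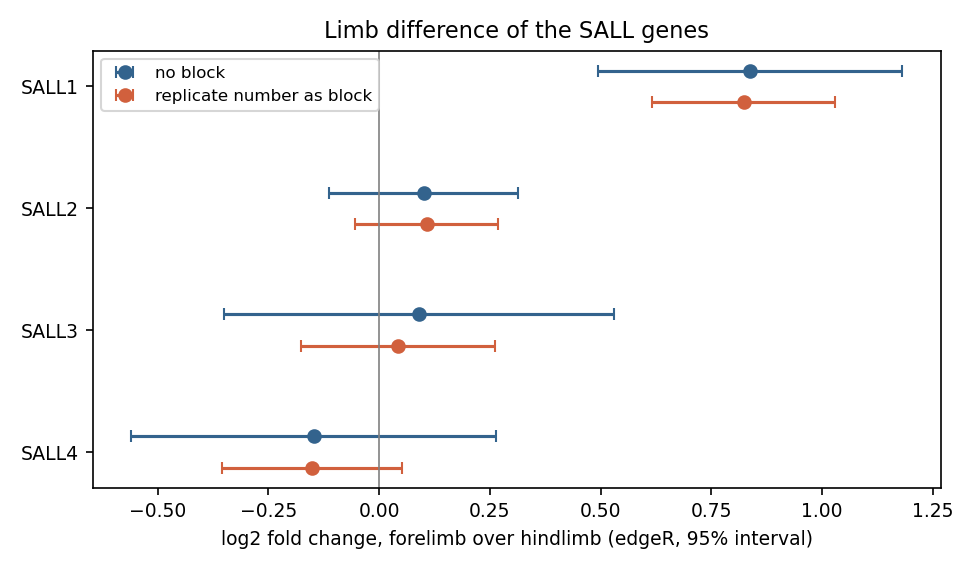
Log2 fold change, forelimb over hindlimb, of each SALL gene with its 95% interval from edgeR, without the block (blue) and with the replicate number as a block (orange). The SALL1 intervals (0.49 to 1.18 and 0.62 to 1.03) lie above 0, and the intervals of the other genes include 0.

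Whether SALL1 differed from its relatives was asked directly with the log2 ratio of each pair of members within a library, a measure that does not depend on scaling between libraries. Only the limb difference of a ratio is read, because transcript lengths were not used here and the level of a ratio depends on them. The ratio of SALL1 to SALL2 was higher in forelimb by 0.72 on the log2 scale, that of SALL1 to SALL3 by 0.78 and that of SALL1 to SALL4 by 0.97. In each of these ratios the limbs did not overlap, and forelimb was higher in 5 of 5 pairs. Each gave p = 0.00794 in a two-sided exact permutation test, the smallest that 252 arrangements allow, and 0.0159 after adjustment over the 6 ratios.

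The other ratios did not pass. The ratio of SALL3 to SALL4 was higher in forelimb by 0.19 and in 5 of 5 pairs, with an exact permutation p of 0.0476 and 0.0714 adjusted. The ratio of SALL2 to SALL4 was higher by 0.26 and in 5 of 5 pairs, with an exact permutation p of 0.222 and 0.267 adjusted. The ratio of SALL2 to SALL3 differed by 0.07, with 0.786 both before and after adjustment in the exact permutation test. The 6 ratios share members and are not independent. A sign-flip test over the 5 pairs cannot give less than 0.0625 and therefore passes for no ratio.

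**Figure D3:**
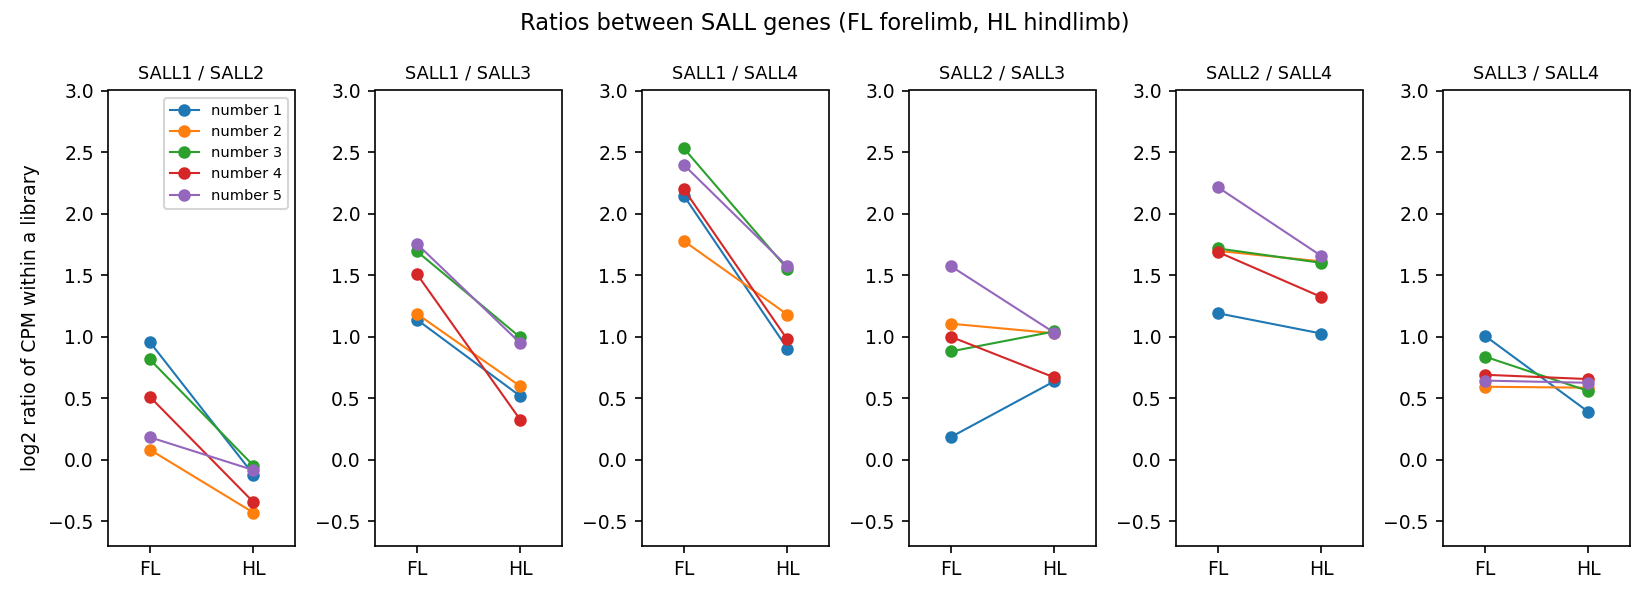
Log2 ratio of the CPM of 2 SALL genes within each library, for the 6 pairs of genes, with lines joining libraries of the same replicate number. In the SALL1 panels every forelimb point lies above every hindlimb point, and in the other panels the limbs overlap.

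The spread over the 10 libraries was divided into parts for limb, for replicate number and for the rest, as shares of the sum of squares of log2 CPM. For SALL1 the limb held 72.2% and the number 20.9%. For SALL2 the number held 56.8%, the limb 16.6% and the rest 26.6%. For SALL3 the number held 86.9% and the limb 0.368%, and for SALL4 the number held 91.6% and the limb 6.13%. The medians over all genes tested were 5.56% for limb and 65.9% for number. SALL3 and SALL4 thus varied mainly with the replicate number, and SALL1 mainly with the limb.

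**Figure D4:**
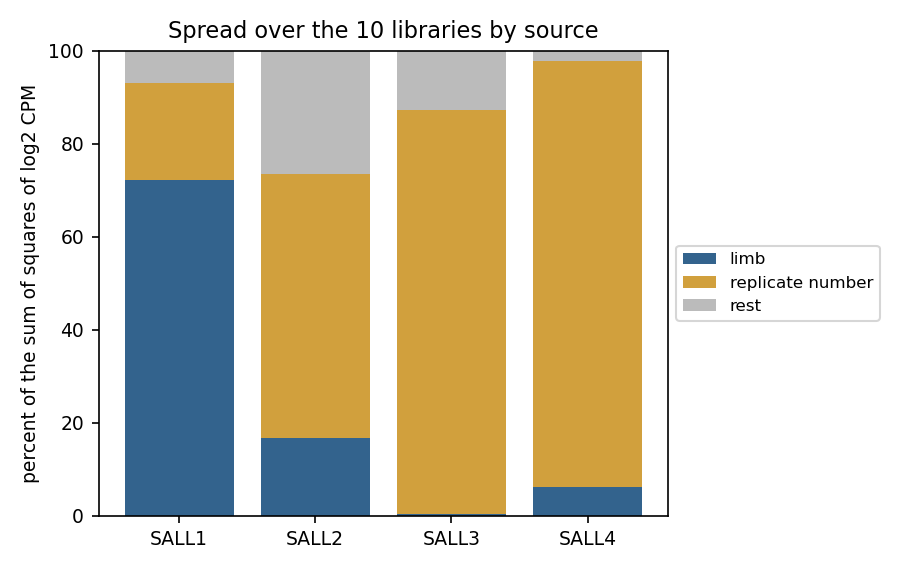
Shares of the sum of squares of log2 CPM over the 10 libraries that go with limb, with replicate number and with the rest, for each SALL gene. The limb holds 72.2% for SALL1 and 0.368% for SALL3.

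The geometric mean of both limbs shows the same dependence on number. For SALL3 it lay between 27.0 CPM in number 5 and 53.1 CPM in number 1, a ratio of 1.97, and for SALL4 between 17.4 CPM and 32.7 CPM in the same numbers, a ratio of 1.88. For SALL1 numbers 1 and 3 stood at 94.2 and 92.9 CPM and the other numbers at 67.4 to 69.1 CPM. SALL2 ran from 63.7 CPM in number 4 to 78.0 CPM in number 2, a ratio of 1.23. What a number marks is not stated in the labels, so embryo, collection and library preparation cannot be told apart.

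Likeness of pattern was measured as the root-mean-square difference (RMS) between genes' log2 CPM, each centred on its own mean, over the 10 libraries, among 7582 genes with a symbol and a mean of at least 8 CPM. SALL3 and SALL4 were the most alike pair of members, with an RMS of 0.16, and SALL4 ranked 8th of 7581 genes by likeness to SALL3. SALL1 and SALL4 were the least alike, with an RMS of 0.56. The genes most like SALL3 were SOX13, PRKAB1 and TCTN1 (RMS 0.11 to 0.14). Those most like SALL4 were PRKAB1, G3BP1 and CBX5 (RMS 0.09 to 0.12), and those most like SALL2 were KAT7, NDRG2 and PARN (RMS 0.06). All these genes share the same libraries, and likeness to a gene that varies little is easily reached.

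The gene most like SALL1 was TBX18, a T-box gene of the limb mesenchyme, with an RMS of 0.11, where the RMS of SALL1 about its own mean was 0.48. TBX18 (ENSACAG00000003859) was at 254, 197, 255, 228 and 179 CPM in forelimb replicates 1 to 5 and at 145, 133, 143, 111 and 137 CPM in hindlimb replicates 1 to 5. As for SALL1, replicates 1 and 3 were the highest in both limbs and hindlimb replicate 4 was the lowest of all. The log2 fold change of TBX18 was 0.73 ± 0.12 (SE), and edgeR gave it an adjusted p of 0.0184 in the fit without the block and 0.000696 in the block fit. Without the block the call was lost when any of forelimb replicates 1, 3 and 4 or hindlimb replicates 2, 3 and 5 was left out, with edgeR adjusted p of 0.0532 to 0.0690.

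Next came ETS1, an ETS-family transcription factor, and GPC1, a heparan sulphate proteoglycan of the cell surface, each with an RMS of 0.20. ETS1 had means of 25.5 CPM in forelimb libraries and 14.8 CPM in hindlimb libraries and a log2 fold change of 0.78 ± 0.19 (SE). For ETS1 edgeR gave adjusted p-values of 0.255 (no block) and 0.00669 (block). GPC1 had means of 188 CPM and 136 CPM and a log2 fold change of 0.47 ± 0.13, with edgeR adjusted p-values of 0.438 (no block) and 0.0201 (block). With the block, leaving out a pair gave ETS1 adjusted p of 0.00521 to 0.0549 and GPC1 0.00396 to 0.127. These genes were picked for likeness to SALL1 over both limbs, so their limb difference is a description and adds no support.

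**Figure D5:**
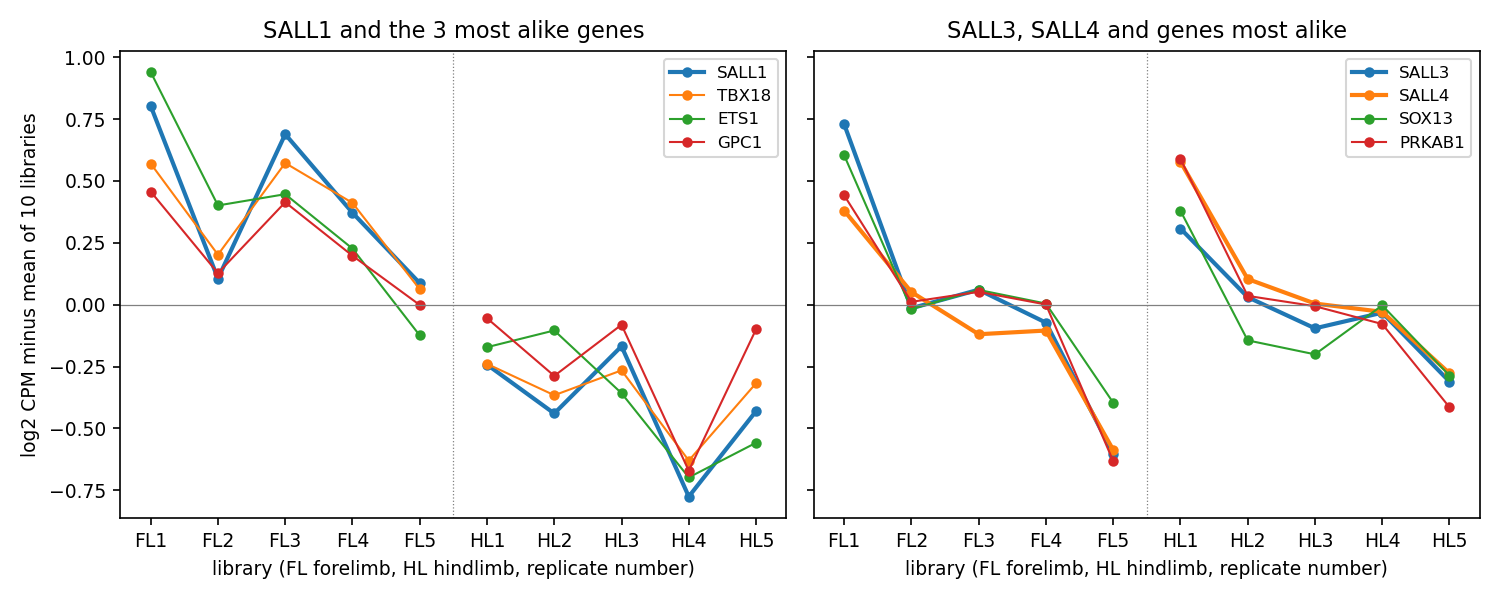
Log2 CPM of each gene minus its mean over the 10 libraries (FL forelimb, HL hindlimb, then the replicate number). Lines only join the points of a gene within a limb, since replicates have no order. Left, SALL1 with TBX18, ETS1 and GPC1; right, SALL3 and SALL4 with SOX13 and PRKAB1, which are high in FL1 and HL1 and low in FL5 and HL5.

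Partners of SALL genes in the limb bud were read from a list of 15 genes, of which 10 had a symbol and were tested. Apart from TBX5 and TBX4, which served above to check the limb labels, none of the 8 remaining genes was called by edgeR without or with the block. DESeq2 without the block called 2 of the 10, which were TBX5 and TBX4. In edgeR 3 of the 10 had an unadjusted p under 0.05 without the block and 5 with it, against 3.95% and 13.8% of all genes. These counts include TBX5 and TBX4, which were known to differ. Besides them they hold WNT3 without the block, and WNT3, GLI1 and GLI3 with it. Of the 8 remaining genes 4 had a positive and 4 a negative log2 fold change, from -1.25 to 0.31. The median log2 fold change of the list was 0.05, and that of all genes tested was -0.01. GLI3, the hedgehog effector that works with Sall4 in the mouse hindlimb, had a mean of 160 CPM ± 33.5 (SD, n = 5) in forelimb libraries and 132 CPM ± 26.4 in hindlimb libraries. The log2 fold change of GLI3 was 0.28 ± 0.16 (SE), and its edgeR adjusted p-values were 1.0 (no block) and 0.148 (block). GLI1, a target of hedgehog signalling, was at 21.3 CPM ± 4.91 and 17.1 CPM ± 4.22, and its edgeR adjusted p-values were 1.0 (no block) and 0.235 (block). WNT3, a ligand of the limb ectoderm, was the 1 gene of these 8 whose limbs did not overlap, against 1.19% of all genes tested. Its means were 16.3 CPM ± 1.58 in forelimb libraries and 13.1 CPM ± 0.807 in hindlimb libraries. It was higher in forelimb in 5 of 5 pairs, as were 7.78% of all genes tested. WNT3 did not pass, at edgeR adjusted p-values of 1.0 (no block) and 0.222 (block). GLI3, GLI1 and WNT3 were chosen as examples after their values were seen. PTCH1, FGF10, SP8, IRX3 and IRX5 had no symbol and were not used here.

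The NuRD subunits, through which SALL proteins repress, did not pass the test in either fit. Of 15 genes on the list 10 were tested, and 0 were called by edgeR without or with the block or by DESeq2. With a pair left out the edgeR block fit called 0 to 1 of them. The 1 was called without number 1, where 2.11% of all genes were called. Unadjusted p was under 0.05 for 0 of them without the block and for 4 with it, where the shares of all genes were 3.95% and 13.8%. Their log2 fold changes ran from -0.17 to 0.20 with a median of 0.05. CHD4, the remodelling subunit, was the one farthest toward forelimb in the fit without the block, though not in the block fit. Its means were 1463 CPM ± 225 (SD, n = 5) in forelimb libraries and 1275 CPM ± 217 in hindlimb libraries. Its edgeR adjusted p was 1.0 without and 0.150 with the block. It was chosen as an example after its value was seen.

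Cereblon (CRBN) and its ubiquitin ligase, which degrade human SALL4 when thalidomide is bound, were all measured. Of these 5 genes 0 were called by edgeR without or with the block or by DESeq2. Unadjusted p was under 0.05 for 0 without the block and for 1 with it, against 3.95% and 13.8% of all genes. Their log2 fold changes ran from -0.22 to 0.11, with a median of -0.14.

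Because SALL1 is also a gene of the embryonic kidney, which lies near the limb-forming flank, mesonephros markers are given beside its limb difference. Of 18 such genes 15 had a symbol and 11 were tested. Their summed level was 236 to 309 CPM in forelimb and 210 to 265 CPM in hindlimb, so the limbs overlapped. Of the defining markers, PAX2 had a mean of 0.042 CPM in forelimb and 0.091 CPM in hindlimb, and the podocyte gene NPHS1 0.319 and 0.234 CPM. PAX8, LHX1 and CDH16 had no symbol and were not used here. Without the block edgeR called 0 of the 11, DESeq2 called 0, and 3 had an unadjusted p under 0.05, as 5 did with the block (3.95% and 13.8% of all genes). Other markers of the list were well measured and did not pass in either edgeR fit. OSR1 had means of 66.7 CPM and 77.3 CPM in forelimb and hindlimb libraries, the highest of the list, and WNT9B of 17.7 CPM and 16.1 CPM. Which tissue expressed these better measured genes was not tested, so the summed level is not a measure of kidney tissue.

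With the block edgeR called 2 of the 11 mesonephros markers, in opposite directions, against 1.33% of all genes. DESeq2 with the block called 3 genes of this list, against 3.45% of all genes. With a pair left out the edgeR block fit called 0 to 4 of them, against 0.37% to 2.11% of all genes. EMX2, a homeobox gene that limb and girdle mesenchyme also uses, was higher in forelimb, at 33.0 CPM ± 4.65 (SD, n = 5) against 22.1 CPM ± 4.47. Its log2 fold change in the block fit was 0.59 ± 0.09 (SE), at an edgeR adjusted p of 0.00554. WT1, a zinc finger gene of kidney and body-cavity lining, was higher in hindlimb, at 1.84 CPM ± 0.611 against 0.549 CPM ± 0.516 in forelimb. Its log2 fold change in the block fit was -2.05 ± 0.45, at an edgeR adjusted p of 0.0414. These calls depended on single pairs: without number 2 EMX2 had an edgeR adjusted p of 0.0555, and WT1 was called only when number 1 was left out, with 0.0910 to 0.177 when another number was. RET, a receptor of the nephric duct and of nerve precursors, was at 26.2 CPM ± 13.3 and 13.6 CPM ± 6.08 and did not pass in the block fit, where its edgeR adjusted p was 0.0573. It was named after its value was seen. The part of tissue with these markers in the SALL1 difference was not tested. In these bulk samples more cells that express SALL1 and more SALL1 RNA per cell cannot be told apart.

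Markers of germ cells and macrophages, other cells that use SALL genes, were low. The 6 germ and pluripotent cell markers with a symbol, a class in which SALL4 is active, summed to 7.41 to 12.7 CPM in forelimb and 6.30 to 12.8 CPM in hindlimb. The 5 macrophage markers with a symbol, a class in which brain-resident cells use SALL1, summed to 15.7 to 21.4 CPM and 11.4 to 21.8 CPM. Neither list, with 4 genes tested in each, held a gene called by edgeR without or with the block or by DESeq2. Without the block 0 genes had an unadjusted p under 0.05 in either list, and with it 1 germ cell gene and 0 macrophage genes did. The shares of all genes were 3.95% and 13.8%. Of the ectoderm and apical ridge markers, tissue in which SALL genes are also active, 0 of 9 were called by edgeR without or with the block or by DESeq2 and 0 had an unadjusted p under 0.05 in either edgeR fit. Their summed level was 491 to 555 CPM in forelimb and 423 to 647 CPM in hindlimb.

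The genes that flank each member in the RefSeq gene order of the assembly rAnoSag1.mat (Anolis sagrei), taken as the nearest coding gene on either side that was tested here, gave 8 neighbours. Of these 0 were called by edgeR without or with the block or by DESeq2. In either edgeR fit 0 had an unadjusted p under 0.05, against 3.95% of all genes without the block and 13.8% with it. SALL1 lay between CYLD, a deubiquitinase, and TOX3, an HMG-box gene. CYLD had means of 22.4 CPM in forelimb libraries and 21.5 CPM in hindlimb libraries and a log2 fold change of 0.06 ± 0.14 (SE). TOX3 had means of 5.93 and 4.45 CPM and a log2 fold change of 0.41 ± 0.23. In the fit without the block edgeR gave each an adjusted p of 1.0. The sign of the CYLD value turned without forelimb replicate 1. Whether the limb difference of SALL1 differs from that of its neighbours was not tested.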

How the data were processed

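Per the labels' protocols, RNA came from the mirVana kit and was turned into strand-keeping, polyA-selected libraries (TruSeq Stranded mRNA). The tools named per the submitters' processing notes are STAR, featureCounts, DESeq2 and FastQC. Their versions, the genome build, the annotation release and the strand setting are not given in the sources used here. Reads of genes that overlap a SALL gene therefore cannot be set apart. The gene identifiers carry the Ensembl prefix of another anole, Anolis carolinensis (ENSACAG), and not of the species sequenced. The effect of this on the counts was not tested. The deposited tables hold raw counts per gene for each library. The authors' table of the limb comparison holds, per the file headers, a mean normalised signal, log2 fold changes and their standard errors, a test score and p-values, and pairs identifiers with the symbols used here in upper case.

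Counts were fitted in R 4.3.3 with edgeR 4.0.16 (quasi-likelihood, robust, TMM, default filter with a minimum count of 10 and a minimum total of 15), leaving 15595 genes, with Benjamini-Hochberg adjustment over all of them at a threshold of 0.05. SE and 95% intervals come from the test statistic. Log2 CPM used a prior count of 2. Ratios were tested by exact permutation in SciPy 1.17.1. DESeq2 1.42.0 (on genes passing the same filter) and limma 3.58.1 were alternatives, as were other scalings, other filters and leaving out libraries or pairs. The edgeR, DESeq2 and limma voom fits were also run on simulated data with the same biological coefficient of variation for every gene. The outcome is not reported here and adds no support. Over 9747 genes, deviations of libraries with the same number correlated at 0.51 to 0.75 between limbs and those of different numbers at -0.41 to 0.12; the pairing thus rests on the data and not on the labels. The common biological coefficient of variation was 0.313 without the block and 0.193 with it. Libraries of a limb differed by more than sampling noise (chi-square per degree of freedom at least 39.4).

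The members, the gene lists and the tests were chosen with earlier results of these data known. Named genes are the members, genes of the limb partner, NuRD and mesonephros lists past the threshold in either edgeR fit, the 3 genes most like each member, TBX5 and TBX4, PAX2, NPHS1, OSR1 and WNT9B as further mesonephros markers picked after their values were seen, and the examples marked as chosen after their values were seen; flanking genes were named by position. Some genes of the mesonephros list are counted but not reported here by name. The lists of muscle precursors, nerve, endothelium and cartilage had 7, 4, 6 and 6 genes tested and held 0 called by edgeR in either fit or by DESeq2. Unadjusted p was under 0.05 without the block for 0, 1, 0 and 0 genes and with it for 1, 1, 3 and 1. The shares of all genes were 3.95% without the block and 13.8% with it. The endothelial 3 of 6 lay above the share with the block. So did the counts of limb partners (5 of 10), NuRD (4 of 10), mesonephros (5 of 11) and limb mesenchyme (3 of 7). The blood list, with 6 genes tested, likewise held 0 called, 0 at that unadjusted p without the block and 1 with it. Of the limb mesenchyme list, with 7 genes tested, 1 gene, TBX18, was called by edgeR without and with the block and by DESeq2. The shares of all genes called were 0.199%, 1.33% and 0.648%. Unadjusted p was under 0.05 for 3 of the 7 in each edgeR fit. With the block DESeq2 and limma voom each called 2, against 3.45% and 1.48% of all genes. Without the block, leaving out a library gave 0 to 1.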

Additional observations from a re-analysis of the deposited data

Results flagged for a closer look

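In each limb the highest and the lowest of the 5 libraries were compared with their nearest neighbour for 40 sets of values. The sets were the SALL genes, the genes most like them, the total counts and the summed limb partner, NuRD, limb mesenchyme and mesonephros lists. Of these sets 2 had a gap that took up more than 0.71 of the range (the Dixon limit at n = 5). Chance gives about 1 in 20. None of the 8 sets of SALL gene levels was among those 2. The other lists were not entered. Among them, red blood cell markers in forelimb replicate 1 (144 CPM against 11.8 to 14.6 CPM) and cartilage markers in forelimb replicate 3 (2376 CPM against 1488 to 1731 CPM) stood apart. The total count of forelimb replicate 4 was 54998469, against 42151036 to 45608067 in the other forelimb libraries. The level of PARN, named for its likeness to SALL2, was 97.6 CPM in forelimb replicate 2 and 87.3 to 88.8 CPM in the other forelimb libraries.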

How the results depend on the processing

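The log2 fold change of SALL1 was positive in all 23 alternative fits, and the call depended on the setting. The replicate block gave 0.82 (edgeR adjusted p 0.000617), no filter on low counts 0.84 (0.0229), DESeq2 0.84 (0.000398), DESeq2 with the block 0.82 (2.81e-12) and limma voom with the block 0.83 (0.000586); each of these called 1 member where the fit without the block called 0. Without the block, RLE size factors (edgeR adjusted p 0.0628), total counts only (0.101) and a filter at a mean of 1 CPM (0.0637) did not call it. Leaving out a pair in the block fit gave 0.74 to 0.90 (0.77 without number 1), with edgeR adjusted p of 0.000479 to 0.00949 and 1 member called each time. Leaving out a library without the block gave 0.73 to 0.92, with edgeR adjusted p of 0.0514 to 0.213 and 0 members called. The block removes differences between numbers from the error; other causes were not tested.

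SALL3 turned sign without forelimb replicate 1 (-0.13, in a range up to 0.23) and in the block fit without number 1 (-0.047), SALL4 without hindlimb replicate 1 (0.0048, in a range down to -0.28), CYLD without forelimb replicate 1 (-0.022, in a range up to 0.14) and in the block fit without number 4 (-0.031), and the ratio of SALL2 to SALL3 without forelimb replicate 5 (-0.089, in a range up to 0.26). Of the ratios 3 passed, 0 under the paired sign-flip test, which cannot pass at this size, and 3 to 4 with a library left out. Of all genes 31 were called, 208 with the block, 101 by DESeq2, 538 by DESeq2 with the block and 231 by limma voom with the block; leaving out a library gave 19 to 31 and leaving out numbers 1 to 5 with the block gave 330, 58, 69, 97 and 226. The block added the calls of EMX2, WT1, ETS1 and GPC1 and besides that of SALL1 and changed no other call among the genes named with a fold change. With the block and a pair left out, EMX2 had edgeR adjusted p of 0.00672 to 0.0555 and WT1 0.0235 to 0.177, so both calls were lost in some of these fits. RET, not called with all pairs, had edgeR adjusted p of 0.00381 to 0.210 there and was called only without number 1.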
